A study of Mus musculus with 21 samples.

Results

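The difference between B cells of the Peyer's patches (PP) and of the spleen was compared between HEL pos and BCL2 HEL pos cells, a difference of differences called the interaction below. It was taken over all genes as PP minus spleen in BCL2 HEL pos cells, minus PP minus spleen in HEL pos cells. A positive value therefore means that a gene stood higher in PP, relative to spleen, in BCL2 HEL pos cells than in HEL pos cells. The comparison uses 12 of the 21 libraries of the series, 3 per group, and 11419 of the 23337 genes in the count table had enough counts to be tested.

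The libraries hold RNA of B cells sorted from C57BL/6 mice aged 8 to 12 weeks. In each tissue, HEL pos cells have a pooled library and the libraries 392 and 399, and BCL2 HEL pos cells have the libraries 922, 926 and 950. The labels name no other treatment or allele, do not expand HEL or BCL2, and do not give the promoter behind either or how many mice a library or pool holds, so a p-value speaks for the variation among libraries, part of which may be technical. HEL neg cells have 1 pooled library per tissue and stayed outside the test, as did the mesenteric lymph nodes (mLN) outside the contrast, although HEL pos and BCL2 HEL pos mLN libraries shared its estimate of spread. The series names self-reactive B cells of the gut as its subject, and the interaction asks whether the step from spleen to PP differs when cells also carry the BCL2 label.

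Peyer's patches are the lymphoid tissue of the small bowel, where B cells meet gut antigens, while the spleen also holds the marginal zone, a rim of B cells facing the blood. Marginal zone B cells depend on the receptor Notch2, which on binding its ligand frees an intracellular fragment that turns on genes such as Hes1 and Dtx1, and they carry much of the complement receptor Cr2 and the lipid-presenting molecule Cd1d1. BCL2 is a protein of the mitochondrial surface that holds back apoptosis by binding proteins such as BIM, the product of Bcl2l11.

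The 12 libraries held 5751055 to 11340876 counts and 12939 to 18206 genes with at least 1 count. A level is given as CPM, the counts of a gene relative to the TMM-scaled total of its library, and 3 counts, the lowest level read as present, came to 0.258 to 0.519 CPM, for counting error only. The B cell genes Cd79a, Cd79b, Ms4a1, Cd22, Pax5, Ebf1 and Blk were present in all 12. Spearman correlations within groups were 0.954 to 0.988, and no pair was the same within sampling noise. The PP BCL2 HEL pos library 950 stood apart in the ribosomal RNA precursor Rn45s, at 8094 CPM against 20527 to 39687 in the other 11 libraries. Its chi-square per degree of freedom against its replicates was 47.6 and 55.5, against 10.6 to 32.0 in the other pairs. Some transcripts of other cells differed between the groups. The 25 enterocyte genes summed to 316 to 1180 CPM of plain library totals in PP HEL pos, 48.0 to 272 in PP BCL2 HEL pos and 26.4 to 77.9 in the spleen libraries. Of these, 18 were under 1 CPM in every spleen library, and those 18 summed to 209 to 971 CPM in PP HEL pos and 11.6 to 163 in PP BCL2 HEL pos cells. The 13 granulocyte genes summed to 68.7 to 210 CPM in spleen HEL pos libraries and at most 24.3 in the other groups of the contrast. Olfactory and vomeronasal receptor transcripts, which B cells are not known for, summed to 937 CPM in the PP HEL pos pool, 714 in PP HEL pos 399 and 84.4 in PP HEL pos 392. In spleen HEL pos cells they summed to 251, 461 and 102 CPM in the pool, 399 and 392, and in BCL2 HEL pos libraries to 52.7 to 175 CPM. The HEL pos libraries 392 and 399 of both tissues held no more than 0.869 CPM of Y-linked transcripts, against 121 to 168 in the other 8 libraries. Those 8 also held Xist, an X-linked transcript, at 193 and 365 CPM in the HEL pos pools of spleen and PP and 175 to 276 CPM in BCL2 HEL pos libraries. In 392 and 399 Xist was at 360 to 608 CPM. The sex of the mice is not in the labels.

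**Figure D1:**
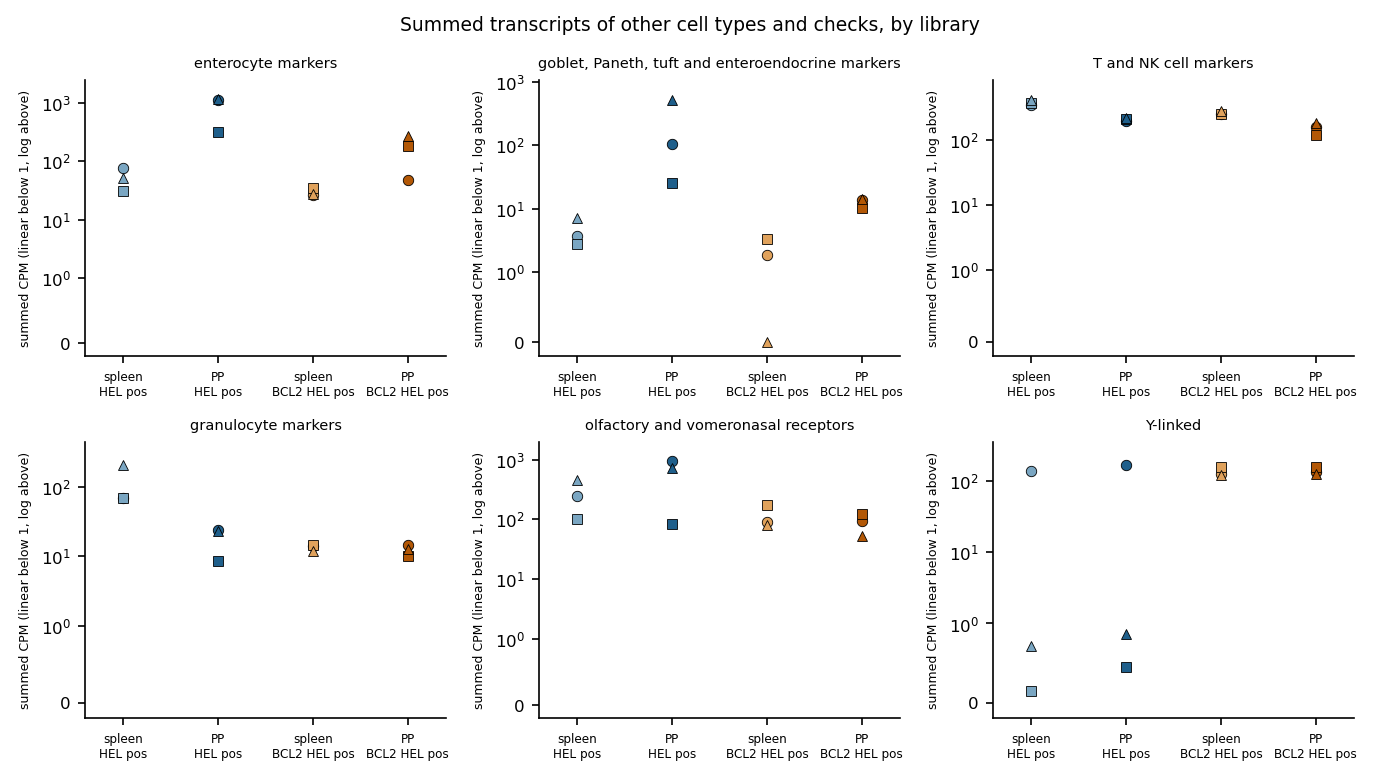
Summed CPM of 6 gene sets (vertical axes, linear below 1 and logarithmic above) in the 12 libraries, by group; circles are the pool or 922, squares 392 or 926, triangles 399 or 950. Enterocyte transcripts are highest in PP HEL pos libraries, granulocyte transcripts in spleen HEL pos libraries, and Y-linked transcripts are near 0 in 392 and 399.

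The gene for the transcription factor HES1, a direct target of Notch signalling, was the only gene called for the interaction, at an adjusted p under 0.05 by edgeR's quasi-likelihood test, which is 0.00876% of the genes tested. In spleen HEL pos cells Hes1 (chromosome 16, 30064384 to 30067796, GENCODE M21 on mm10) stood at 97.3, 111 and 112 CPM in the pool, 392 and 399. In PP HEL pos cells the same libraries gave 38.2, 48.7 and 49.5 CPM. Spleen BCL2 HEL pos cells held 59.3, 55.8 and 45.4 CPM in 922, 926 and 950, and PP BCL2 HEL pos cells 73.1, 59.3 and 66.8 CPM. The spleen and PP libraries did not overlap in HEL pos cells, and in BCL2 HEL pos cells the lowest PP library equalled the highest spleen library to 3 digits. Hes1 was lower in PP than in spleen in HEL pos cells, by a log2 fold change of -1.23 (adjusted p = 2.52e-05), and in BCL2 HEL pos cells the difference was 0.31 (adjusted p = 0.274). The interaction was 1.54 ± 0.22 (SE; adjusted p = 0.0088), with a 95% interval of 1.08 to 2.01.

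Read the other way, Hes1 was lower in BCL2 HEL pos than in HEL pos cells of the spleen (adjusted p = 0.000307) and higher in those of the PP (0.55, adjusted p = 0.0307). Such calls made up 9.37% of genes in spleen and 10.1% in PP. The HEL neg pools, with no replicates, held 65.1 CPM in spleen and 50.0 in PP. In the mLN, Hes1 was at 16.2 to 21.7 CPM in HEL pos and 29.8 to 39.8 CPM in BCL2 HEL pos libraries. With 399 and Pool of the PP HEL pos group left out the value was 1.45 (adjusted p = 0.204), and with the pooled HEL pos libraries alone, which hold Y-linked transcripts as the BCL2 HEL pos libraries do, it was 1.68 (adjusted p = 0.139). It was called under the other 20 of 22 alternatives. Without the PP BCL2 HEL pos library 950 it was 1.55 (adjusted p = 0.0331).

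**Figure D2:**
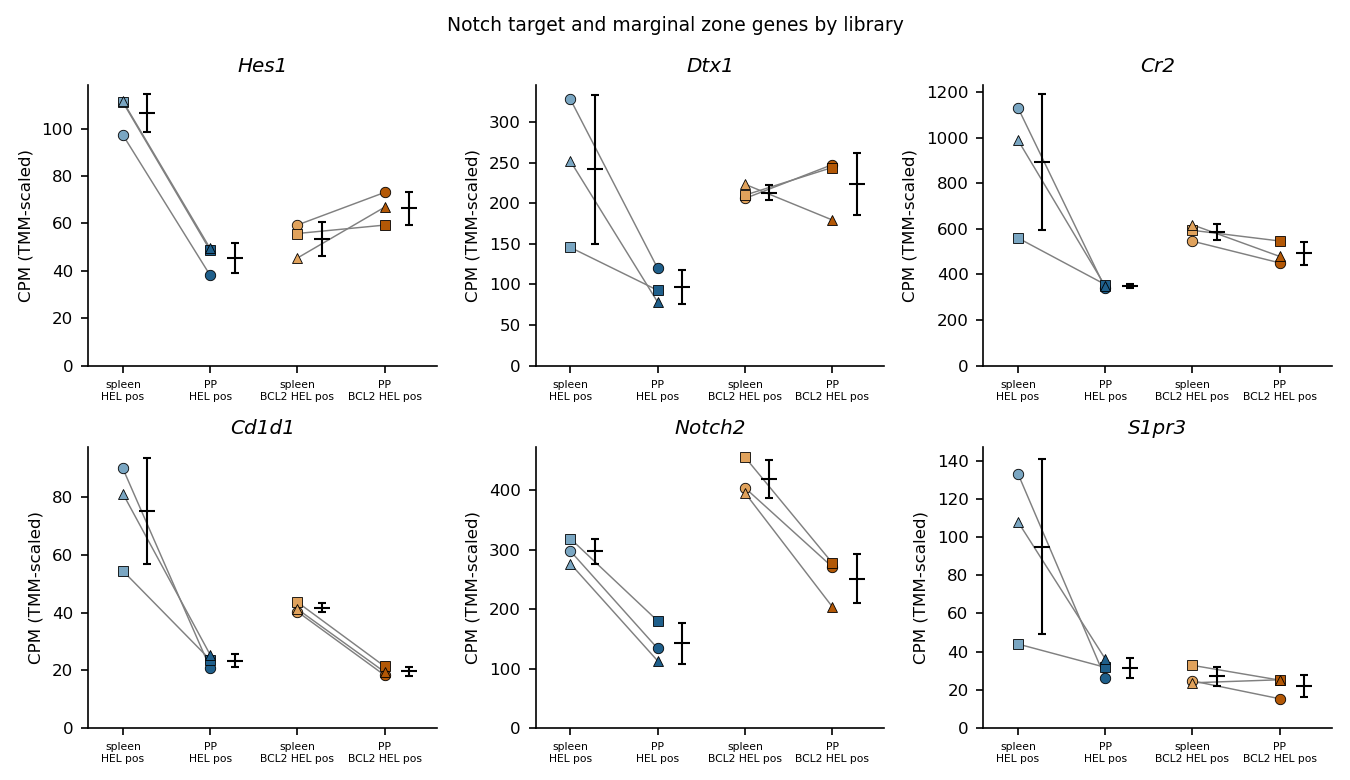
CPM of 6 Notch target and marginal zone genes (vertical axes from 0) in the libraries of the 4 groups; grey lines join libraries of the same number, circles are the pool or 922, squares 392 or 926, triangles 399 or 950, and bars are mean ± SD (n = 3). Hes1 falls from spleen to PP in all 3 HEL pos numbers, whereas the spleen HEL pos library 392 lies below the other spleen HEL pos libraries for Dtx1, Cr2, Cd1d1 and S1pr3.

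Beyond Hes1, the interaction was small next to its error for most genes. At an unadjusted p under 0.05 it reached 1083 genes (9.48%), of which 562 were higher (4.92% of genes tested) and 521 lower (4.56%). The second smallest adjusted p was 0.0797, and 19 genes lay under 0.1. The median interaction over all genes was -0.005 with a median SE of 0.32, so the median 95% interval reached 1.58-fold to either side. The interval stayed within 2-fold of no difference for 5830 genes, 51.1% of those tested, and for 4597 (86.4%) of the 5323 genes whose log2 CPM averaged 5 or more. For the other genes the interval reached past 2-fold in at least 1 direction.

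The tissue difference itself was large in each kind of cell. In HEL pos cells 1756 genes (15.4%) differed between PP and spleen, 907 higher (7.94%) and 849 lower (7.43%) in PP. In BCL2 HEL pos cells 838 genes (7.34%) differed, 549 higher (4.81%) and 289 lower (2.53%). The sets shared 543 genes, 30.9% of the first and 64.8% of the second, and all 543 had the same direction in both. The 2 comparisons have no library in common. Across genes, which are not independent replicates, their log2 fold changes had a Pearson correlation of 0.624 and a Spearman correlation of 0.430. Among the shared genes the median size was 0.97 in HEL pos and 0.88 in BCL2 HEL pos cells, and 312 of 543 were larger in HEL pos cells. With the library number as a block, described below, the counts were 2385 in HEL pos and 1388 in BCL2 HEL pos cells. Without the PP library 950 the count in BCL2 HEL pos cells was 473. A gene past the threshold in 1 kind of cell and not in the other is not shown to differ between them, and 1 gene passed the test of that difference.

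**Figure D3:**
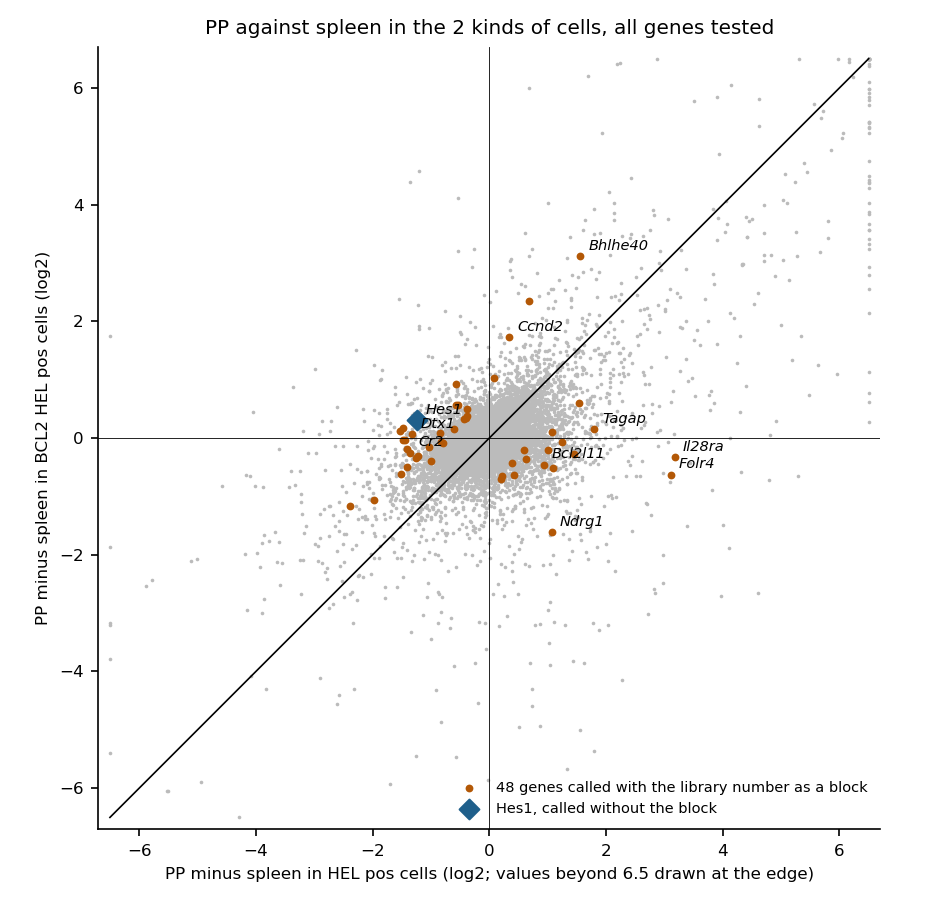
PP minus spleen in HEL pos cells (horizontal axis, log2) against the same in BCL2 HEL pos cells (vertical axis, log2) for the 11419 genes tested; the diagonal marks no interaction and values beyond 6.5 are drawn at the edge. Orange points are the 48 genes called with the library number as a block, and the blue diamond is Hes1, the gene also called without it.

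Spleen and PP libraries carry the same numbers within a kind of cell, and same-numbered libraries deviated together from their group means in all 6 cases. With the number as a block in the fit, 48 genes were called for the interaction (0.420%), 31 higher and 17 lower, with Hes1 among them (adjusted p = 0.00102). With DESeq2 and no block, 60 were called (0.525%), 42 higher and 18 lower, and 34 genes were in both sets. With the block and only the 12 libraries, 6 genes were called, among them Bcl2l11, Bhlhe40, Ccnd2, Hes1 and Ms4a1. Of the 48, 18 were lower in PP than in spleen in HEL pos cells and not called in BCL2 HEL pos cells. A further 11 were higher in PP of HEL pos cells and not called in BCL2 HEL pos cells. In 5 both differences were called in the same direction, in 0 in opposite directions, in 7 only the BCL2 HEL pos difference was called, and in 7 neither was. The gap between the 2 kinds of cells was larger in spleen than in PP for 32 of the 48. These patterns were not counted over all genes. The 48 were picked by the interaction itself, so the counts describe these genes only and show no leaning towards a tissue.

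Most genes of the marginal zone program were lower in PP than in spleen of HEL pos cells, and their interaction values were mostly positive. Of 14 tested members of a list of 15, 10 were lower in PP in HEL pos cells and 5 in BCL2 HEL pos cells, with median log2 fold changes of -1.16 and -0.56. Over all genes tested, 7.43% and 2.53% were lower in PP in these comparisons. The interaction lay above 0 in 13 of 14, with a median of 0.69 against -0.005 over all genes, and was called for 1, Hes1. The interaction subtracts the HEL pos difference, so genes that are lower in PP of HEL pos cells lean above 0. All genes called lower there had a median interaction of 0.45. The lean of this list above 0 is therefore no result separate from its lower levels in PP of HEL pos cells. At an unadjusted p under 0.05 it was higher in 6, against 4.92% of all genes, and lower in 0. In bulk libraries, fewer cells of a type and less RNA per cell cannot be told apart.

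Dtx1, which encodes a ubiquitin ligase of the Notch pathway and is a Notch target, stood at 328, 146 and 252 CPM in spleen and 120, 92.8 and 78.2 CPM in PP in the HEL pos pool, 392 and 399. The BCL2 HEL pos libraries held 206, 210 and 223 CPM in spleen and 247, 244 and 179 CPM in PP. PP lay below spleen in every HEL pos library, and the groups overlapped in BCL2 HEL pos cells. The interaction was 1.39 ± 0.31 (SE; adjusted p = 0.121), and 0.0172 with the block. Its PP minus spleen difference was -1.32 in HEL pos cells (adjusted p = 0.000378) and 0.07 in BCL2 HEL pos cells (adjusted p = 0.917).

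Cr2, the complement receptor that lowers the threshold of the antigen receptor, stood at 1131, 560 and 989 CPM in spleen and 340, 356 and 349 CPM in PP of HEL pos cells. Cr2 in BCL2 HEL pos cells was at 546, 594 and 618 CPM in spleen and 451, 547 and 479 CPM in PP. The spleen HEL pos library 392 lay among the spleen BCL2 HEL pos libraries, while the other spleen HEL pos libraries lay above them. The interaction was 1.11 ± 0.25 (SE; adjusted p = 0.128), and the adjusted p was 0.0322 with the block. Without the spleen HEL pos library 392 the interaction was called for Cr2 (1.38, adjusted p = 0.00579) and Dtx1 (1.68, adjusted p = 0.00988). Hes1 did not share the low value of that library, and gave 1.54 without it.

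Cd1d1, which presents lipids to natural killer T cells, was lower in PP in both kinds of cells. HEL pos cells held 90.1, 54.5 and 81.3 CPM in spleen and 20.8, 23.7 and 25.4 in PP, and BCL2 HEL pos cells 40.4, 43.7 and 41.3 in spleen and 18.3, 21.4 and 19.4 in PP. The PP levels overlapped between the kinds of cells, and the spleen levels were higher in HEL pos cells. The interaction was 0.61 (95% interval 0.09 to 1.13, adjusted p = 0.456). S1pr3, a sphingosine phosphate receptor of marginal zone B cells, stood at 133, 43.9 and 108 CPM in spleen HEL pos cells and 15.3 to 36.2 CPM in all other groups of the contrast, with an interaction of 1.30 (adjusted p = 0.400). Notch2 itself was lower in PP in HEL pos (-1.06, adjusted p = 7.79e-05) and BCL2 HEL pos cells (-0.74, adjusted p = 0.00385). Its interaction was 0.33 (95% interval -0.12 to 0.77). Notch2 was higher in BCL2 HEL pos than in HEL pos cells in spleen (0.49, adjusted p = 0.0429) and in PP (0.82, adjusted p = 0.00216), so that it did not share the low spleen level that Hes1 had in BCL2 HEL pos cells.

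Promoter windows were sought for Hes1, Dtx1, Cr2, Notch2 and Cd1d1, because Notch acts through the DNA-binding protein RBPJ. None was found under the symbols Hes1 and Cd1d1. The windows of Cr2 and Dtx1, which were among the 48 genes called in the blocked fit, are shown. They were copied from RefSeq (GRCm38.p6), run 5′ to 3′ on the minus strand from 250 bases before to 50 after the start, and capitals mark TGGGAA, the core that RBPJ binds, searched on both strands with TTCCCA as its reverse complement.
Cr2, chr1:195176670-195176969: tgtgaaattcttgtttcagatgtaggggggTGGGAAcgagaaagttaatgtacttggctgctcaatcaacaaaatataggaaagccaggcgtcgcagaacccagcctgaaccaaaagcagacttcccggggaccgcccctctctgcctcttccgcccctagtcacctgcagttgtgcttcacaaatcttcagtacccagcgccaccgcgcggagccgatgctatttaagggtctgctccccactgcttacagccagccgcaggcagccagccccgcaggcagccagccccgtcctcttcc
Dtx1, chr5:120711620-120711919: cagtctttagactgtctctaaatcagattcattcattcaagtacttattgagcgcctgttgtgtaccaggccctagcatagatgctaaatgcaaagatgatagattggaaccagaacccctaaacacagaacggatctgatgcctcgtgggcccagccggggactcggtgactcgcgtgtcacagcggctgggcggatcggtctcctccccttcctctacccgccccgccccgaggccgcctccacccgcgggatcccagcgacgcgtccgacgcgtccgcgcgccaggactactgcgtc
The Cr2 window holds the core 1 time and the Dtx1 window 0 times, as does the Notch2 window, which is not shown. Of 32851 such windows of 300 bases in the table, 25.6% hold it, so a match is a description of these letters only.

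The other genes of smallest p are ordered by the group that stood apart in level. Tagap, a GTPase-activating protein of activated lymphocytes, stood at 25.2, 20.6 and 15.2 CPM in spleen HEL pos cells and 68.5, 71.8 and 72.2 in PP HEL pos cells. BCL2 HEL pos cells held 42.4, 75.9 and 88.4 CPM in spleen and 68.3, 85.0 and 76.0 in PP. The spleen HEL pos libraries stood below all others. The interaction was -1.64 ± 0.30 (SE; adjusted p = 0.0797, and 0.00167 with the block). Zfp318, which encodes a nuclear zinc finger protein needed for IgD in mature B cells, was at 24.6, 32.7 and 25.1 CPM in spleen HEL pos cells against 47.5 to 80.6 CPM in the other 3 groups. Its interaction was -1.31 (adjusted p = 0.091, and 0.0305 with the block). Il28ra, a chain of the receptor for lambda interferons, was at 0.151 to 1.23 CPM in spleen HEL pos cells and 4.02 to 9.55 CPM in the other groups of the contrast, with an interaction of -3.50 (adjusted p = 0.091, and 0.0101 with the block). The spleen HEL pos libraries 392 and 399 held under 3 counts of it.

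Ms4a1, which encodes the B cell surface protein CD20, showed the opposite arrangement. It stood at 4238, 4437 and 4678 CPM in spleen HEL pos cells and 1668, 2215 and 1835 in PP HEL pos cells. BCL2 HEL pos cells held 2167, 2186 and 2054 CPM in spleen and 1682, 1644 and 1870 in PP. The spleen HEL pos libraries stood above all others. The interaction was 0.92 ± 0.18 (SE; adjusted p = 0.0797, and 0.00192 with the block). Akap12, a scaffold of protein kinase A, was at 48.2, 61.8 and 31.6 CPM in spleen HEL pos cells and 10.6 to 18.8 CPM in the other groups of the contrast, with an interaction of 1.66 (adjusted p = 0.0800, and 0.0289 with the block).

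Bhlhe40 and Ccnd2 had low spleen levels in BCL2 HEL pos cells. Bhlhe40, a transcriptional repressor induced by stimulation of lymphocytes, stood at 39.3, 40.4 and 32.9 CPM in spleen and 120, 120 and 91.0 CPM in PP of HEL pos cells. BCL2 HEL pos cells held 13.9, 9.06 and 15.1 CPM in spleen and 79.0, 117 and 133 CPM in PP. PP levels overlapped between the kinds of cells while spleen levels did not. Bhlhe40 was higher in PP in both (1.56, adjusted p = 2.78e-05, and 3.12, adjusted p = 2.24e-08), and its interaction was 1.56 ± 0.29 (SE; adjusted p = 0.0797, and 0.0172 with the block). Ccnd2, the cyclin that carries stimulated B cells into the cell cycle, stood at 178, 209 and 190 CPM in spleen and 268, 250 and 212 CPM in PP of HEL pos cells. It was at 27.2, 24.9 and 41.3 CPM in spleen and 86.8, 89.0 and 133 CPM in PP of BCL2 HEL pos cells. Every BCL2 HEL pos library lay below every HEL pos library. The interaction was 1.39 ± 0.28 (SE; adjusted p = 0.091, and 0.000763 with the block). Uhrf1, which maintains DNA methylation in dividing cells, was at 44.0 to 63.5 CPM in spleen and 22.5 to 48.6 in PP of HEL pos cells, and at 7.90 to 10.6 and 16.1 to 18.4 CPM in BCL2 HEL pos cells. Its interaction was 1.49 (adjusted p = 0.091, and 0.0172 with the block).

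**Figure D4:**
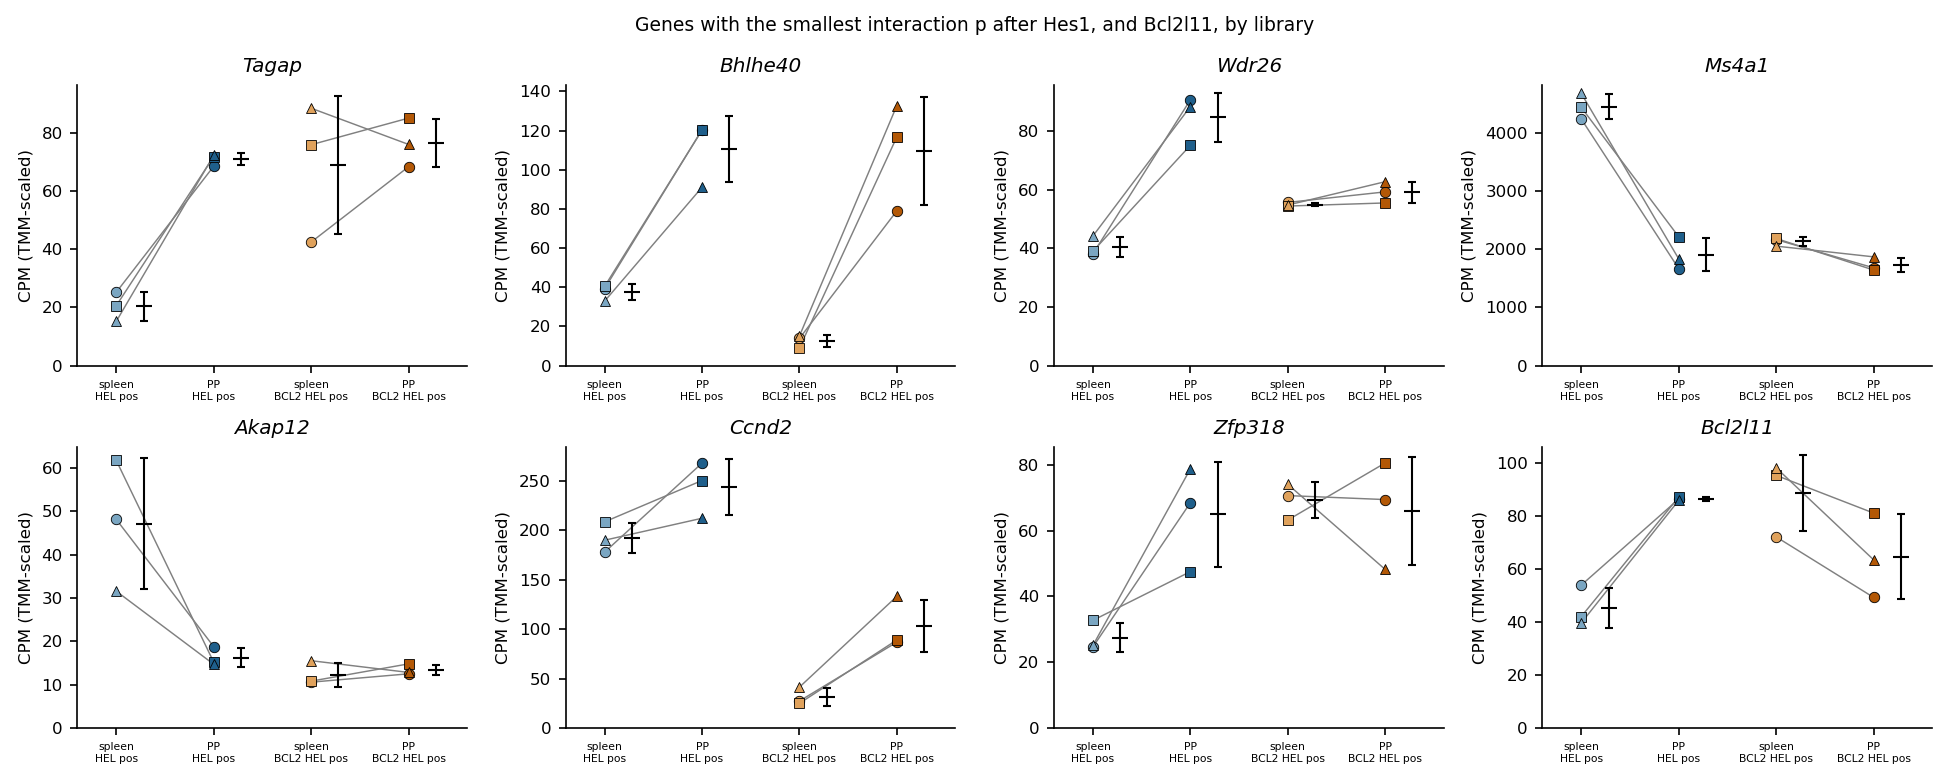
CPM of the 7 genes with the smallest interaction p after Hes1, and of Bcl2l11 (vertical axes from 0), in the libraries of the 4 groups; grey lines join libraries of the same number, circles are the pool or 922, squares 392 or 926, triangles 399 or 950, and bars are mean ± SD (n = 3). For Tagap, Ms4a1, Akap12 and Zfp318 the spleen HEL pos libraries stand apart from the other 3 groups, and for Wdr26 the PP HEL pos libraries do.

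In a few genes a PP group stood apart from the other groups of the contrast. Wdr26, a WD repeat protein of a ubiquitin ligase complex, was at 38.2, 39.1 and 44.3 CPM in spleen and 90.7, 75.2 and 88.4 in PP of HEL pos cells, and at 54.5 to 55.7 and 55.5 to 62.8 CPM in BCL2 HEL pos cells. Its interaction was -0.96 (adjusted p = 0.0797, and 0.0172 with the block). Ndrg1, a gene of hypoxia and of unresponsive T cells, was at 8.10 to 9.41 CPM in spleen and 0.631 to 4.04 in PP of BCL2 HEL pos cells, and at 4.54 to 7.23 and 9.18 to 16.6 CPM in HEL pos cells. Its interaction was -2.68 (adjusted p = 0.091, and 0.0133 with the block). Folr4, best known from regulatory T cells, was at 10.0 to 12.4 CPM in PP HEL pos cells and 0.148 to 4.25 CPM in the other 3 groups of the contrast, with an interaction of -3.74 (adjusted p = 0.133, and 0.00972 with the block). The mLN HEL pos libraries held more Folr4, 36.5 to 40.3 CPM, and the mLN BCL2 HEL pos libraries 2.36 to 7.34 CPM. The T cell gene Cd3e was at 1.46 to 4.15 CPM in PP HEL pos, 0.258 to 2.40 in PP BCL2 HEL pos, 0.112 to 0.886 in spleen HEL pos and 2.12 to 3.95 in spleen BCL2 HEL pos libraries. The 20 T and NK cell genes summed to 199 to 223 CPM in PP HEL pos, 121 to 183 in PP BCL2 HEL pos, 348 to 414 in spleen HEL pos and 258 to 288 in spleen BCL2 HEL pos libraries. Cd2 alone made up 149 to 179 CPM of that sum in PP HEL pos and 294 to 353 in spleen HEL pos libraries. The part of T cell transcripts in the Folr4 result was not tested. Pigr, the epithelial receptor that carries IgA into the gut, was at 19.8 to 37.6 CPM in PP HEL pos and 7.38 to 16.2 CPM in the other groups of the contrast, with an interaction of -1.74 (adjusted p = 0.195, and 0.0429 with the block). The enterocyte sum was also highest in PP HEL pos libraries, at 316 to 1180 CPM, and in the PP HEL neg pool, at 1626 CPM, where Pigr stood at 68.4 CPM. Its part in the Pigr result was not tested.

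Bcl2 transcripts followed the label and not the tissue. HEL pos cells held 88.0, 51.2 and 67.5 CPM in spleen and 90.2, 50.8 and 49.8 in PP. BCL2 HEL pos cells held 182, 145 and 177 CPM in spleen and 153, 142 and 141 in PP, above every HEL pos library. Bcl2 was higher in BCL2 HEL pos cells in spleen (log2 fold change 1.28, adjusted p = 0.00129) and in PP (1.19, adjusted p = 0.00333). The labels do not say whether the BCL2 of these mice is a mouse or a human sequence, so reads of a transgene may be missed by this gene's count. The interaction was -0.09 with a 95% interval of -0.78 to 0.59.

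Among the genes of BCL2's partners, Bcl2l11, whose product BIM starts apoptosis when antigen receptors of self-reactive B cells are engaged, had the smallest p. It was at 54.0, 42.1 and 39.7 CPM in spleen and 86.5, 87.3 and 86.0 CPM in PP of HEL pos cells. Its levels in BCL2 HEL pos cells were 72.2, 95.5 and 98.4 CPM in spleen and 49.4, 81.2 and 63.6 CPM in PP, and each numbered library was lower in PP. Bcl2l11 was higher in PP in HEL pos cells (0.93, adjusted p = 0.00392), while the difference in BCL2 HEL pos cells was -0.46 (adjusted p = 0.209). The interaction was -1.39 ± 0.29 (SE; adjusted p = 0.091, and 0.00102 with the block). Of 8 tested genes of the proapoptotic list, 1 was above and 2 below 0 at an unadjusted p under 0.05, Bid (0.88), Bcl2l11 and Bmf (-0.71). Over all genes, 4.92% were above and 4.56% below 0 at that level. Of 6 tested antiapoptotic genes, 1 was below 0 at that level, Bcl2l2 (-2.03), which was under 5 CPM in every library of these groups. The antiapoptotic Mcl1 had an interaction of -0.31 (95% interval -1.09 to 0.46).

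Nr4a1, Egr2 and Cd83, which antigen receptor signals induce, were higher in PP in both kinds of cells. Nr4a1, an orphan nuclear receptor that tracks antigen receptor signalling, stood at 32.6, 40.1 and 48.0 CPM in spleen and 265, 239 and 309 in PP of HEL pos cells. BCL2 HEL pos cells held 22.7, 15.7 and 36.4 CPM in spleen and 282, 186 and 411 in PP. Both kinds of cells rose from spleen to PP without overlap, by 2.75 and 3.56 on the log2 scale, and the interaction was 0.81 with a 95% interval of -0.02 to 1.64. Egr2, a transcription factor that restrains responses to self antigen, was at 4.09 to 5.46 CPM in spleen and 91.2 to 116 in PP of HEL pos cells, and at 2.75 to 6.16 and 40.8 to 83.8 CPM in BCL2 HEL pos cells. Its interaction was -0.61 (95% interval -1.59 to 0.36). Cd83, an activation marker, was at 329 to 364 CPM in spleen and 1589 to 1692 in PP of HEL pos cells, and at 262 to 403 and 1365 to 2018 CPM in BCL2 HEL pos cells. Its interaction was 0.13, and its interval of -0.32 to 0.58 leaves out a 2-fold difference in either direction. For Nr4a1 and Egr2 the interval reaches past 2-fold on 1 side. Over the immediate early list, 2 of 20 tested genes were above and 0 below 0 at an unadjusted p under 0.05, with a median of 0.06. Over all genes these shares were 4.92% and 4.56%.

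Genes of the antigen receptor's signalling chain had mostly positive interactions of small size. Of 26 tested, 19 lay above 0 with a median of 0.32, against 49.4% of all genes above 0 and a median of -0.005. At an unadjusted p under 0.05, 9 were higher and 0 lower, against 4.92% and 4.56% of all genes, and none was called in the main edgeR fit. The median PP minus spleen difference of the list in HEL pos cells, which the interaction subtracts, was -0.29. All genes called lower in PP of HEL pos cells had a median interaction of 0.45, so this lean is not shown to be particular to the list. Fcgr2b, the inhibitory Fc receptor of B cells, was at 182, 189 and 226 CPM in spleen and 117, 130 and 105 in PP of HEL pos cells, and at 252 to 281 and 221 to 273 CPM in BCL2 HEL pos cells. Its interaction was 0.62 (adjusted p = 0.263, and 0.0449 with DESeq2). Blnk, the adaptor below the receptor, gave 0.47, Plcg2, the phospholipase that follows, 0.48, and Cd22, an inhibitory coreceptor, 0.35. In HEL pos cells 12 members were lower and 3 higher in PP, against 7.43% and 7.94% of all genes. In BCL2 HEL pos cells, where fewer genes were called in all, 4 were lower and 4 higher, against 2.53% and 4.81%. Toll-like receptor genes gave a median of 0.41 over 19 tested, 8 higher and 0 lower at an unadjusted p under 0.05, against 4.92% and 4.56% of all genes, and none was called in the main edgeR fit. Their median PP minus spleen difference in HEL pos cells was -0.33, so the same limit holds for them. Tlr3, a sensor of double-stranded RNA known from marginal zone B cells, was at 31.9, 5.00 and 14.9 CPM in spleen and 0.173 to 1.89 in PP of HEL pos cells, and at 6.37 to 10.2 and 1.55 to 8.07 CPM in BCL2 HEL pos cells. Its interaction was 3.03 (95% interval 1.14 to 4.93, adjusted p = 0.317). The spleen HEL pos library 392 was again the lowest of its group.

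Lists of tolerance and costimulation had medians below 0 and no call in the main edgeR fit. Their median PP minus spleen differences in HEL pos cells, which the interaction subtracts, were 0.49 and 0.41. All genes called higher in PP of HEL pos cells had a median interaction of -0.37, so medians below 0 are not shown to be particular to these lists. Anergy and tolerance genes had a median of -0.16 over 25 tested. At an unadjusted p under 0.05, 4 were higher and 5 lower, against 4.92% and 4.56% of all genes. Cd5, which dampens antigen receptor signalling, was at 9.38 to 15.6 CPM in PP HEL pos cells and 1.64 to 4.26 CPM in the other 3 groups of the contrast (interaction -1.72, adjusted p = 0.346). In the mLN, HEL pos libraries held 16.9 to 18.5 CPM of Cd5 and BCL2 HEL pos libraries 1.45 to 3.06 CPM. Cd5 is also a T cell gene, and the part of T cell transcripts in this value was not tested. Costimulation and coinhibition genes had a median of -0.35 over 18 tested. At an unadjusted p under 0.05, 3 were higher and 5 lower, against the same shares of all genes. Cd274, which encodes PD-L1, was at 46.7 to 53.3 CPM in spleen and 79.0 to 104 in PP of BCL2 HEL pos cells, and at 52.7 to 74.7 and 60.0 to 71.2 CPM in HEL pos cells. The Cd274 interaction was 0.89 (adjusted p = 0.146, and 0.0185 with DESeq2). Dusp4, a phosphatase of MAP kinases, was higher in PP in both kinds of cells, by 4.33 and 2.98 on the log2 scale, with an interaction of -1.35 (adjusted p = 0.263).

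Cholesterol synthesis genes were higher in PP in 10 of 18 tested in HEL pos cells and in 15 of 18 in BCL2 HEL pos cells, with medians of 0.87 and 1.32. Over all genes tested, 7.94% and 4.81% were higher in PP in these comparisons. The interaction lay above 0 in 17 of 18, against 49.4% of all genes, with a median of 0.47. At an unadjusted p under 0.05, 3 were higher, against 4.92% of all genes, and none was called. Mitosis genes had a median of 0.63 over 22 tested with 1 higher at an unadjusted p under 0.05, against the same 4.92%. Cytosolic ribosomal protein genes had a median of -0.28 over 35 tested, 2 above and 33 below 0, with 0 in either direction at that level.

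**Figure D5:**
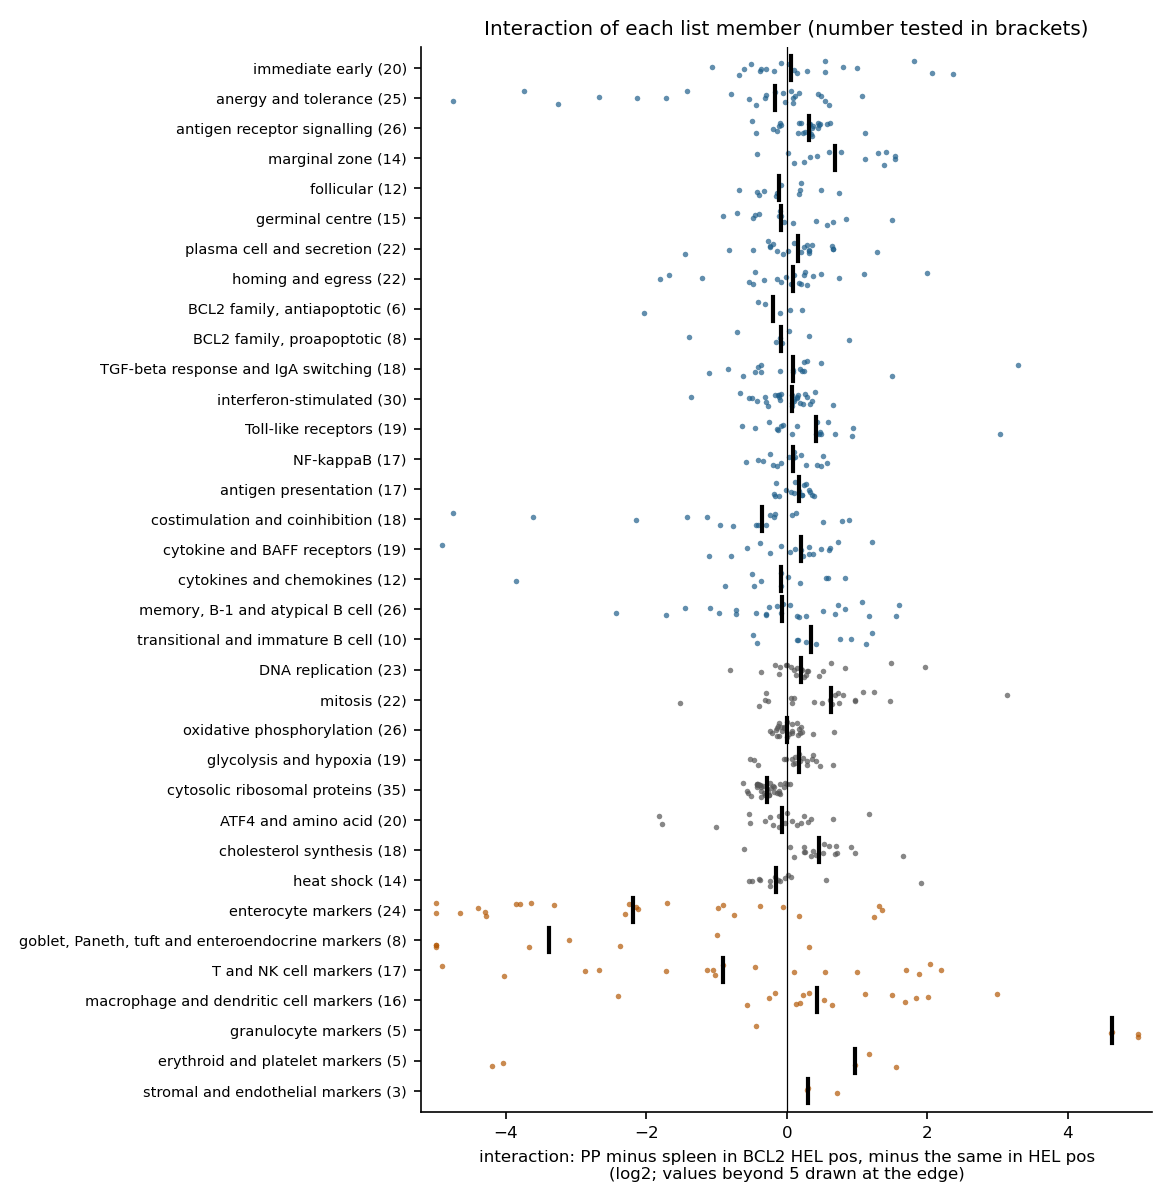
Interaction (horizontal axis, log2) of each tested member of the gene lists; black bars are medians, values beyond 5 are drawn at the edge, and colours mark B cell lists (blue), lists shared by many cells (grey) and lists of other cell types (orange). Marginal zone genes lie mostly right of 0, enterocyte genes mostly left of 0 and ribosomal protein genes in a narrow band left of 0.

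The lists of other cell types had wide interactions in few counts. Enterocyte genes gave a median of -2.19 over 24 tested. At an unadjusted p under 0.05, 1 was higher and 3 lower, against 4.92% and 4.56% of all genes. In PP, 21 of 24 were higher in HEL pos and 13 in BCL2 HEL pos cells, against 7.94% and 4.81% of all genes. Of the 25 listed, 18 were under 1 CPM in every spleen library. Such genes passed the count filter through libraries in which they were high, so their direction between the tissues was fixed in advance. Apob, an apolipoprotein of enterocytes, was at 6.85 to 19.8 CPM in PP HEL pos cells, and at most 0.672 CPM in PP BCL2 HEL pos cells. Granulocyte genes gave a median of 4.62 over 5 tested of 13, and the fitted values of genes listed at 0 in a group depend on the prior count. S100a8, for example, was at 17.3 to 101 CPM in spleen HEL pos libraries and at most 0.495 in the other groups of the contrast. A gene seen in 1 group passes the count filter through that group, so the sign of this median is no separate result. T and NK cell genes gave a median of -0.91 over 17 tested.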

How the data were processed

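RNA was measured in 21 libraries by single-end sequencing, per the labels, which name a Nextera XT kit besides a TruSeq kit. The authors deposited whole-number counts per gene. The submitters' processing notes name mm10 as the build and list DESeq2, HTSeq and STAR without role or version. Strand is not stated, so a gene and an overlapping antisense gene cannot be told apart. Of 23337 symbols, 20929 were found in GENCODE M21, which gave coordinates. The table holds no blank or summary rows.

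Genes were filtered with filterByExpr by group, scaled by TMM and tested two-sided in R 4.3.3 with edgeR 4.0.16 (quasi-likelihood). Adjustment was by Benjamini-Hochberg over all 11419 genes, and 0.05 was the threshold on the adjusted p. The fit held 18 libraries in 6 groups, spleen, mLN and PP of both kinds of cells, with 12 residual degrees of freedom. An SE is the size of a log2 fold change divided by the root of its F statistic. Sums over marker genes are CPM of plain library totals. The test was also run on simulated counts. These held no shared deviation of same-numbered libraries, so that run cannot speak for the calls gained with the block.

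Library numbers are shared by tissues, and the labels do not say what a number marks. Deviations from group means of same-numbered spleen and PP libraries correlated at 0.102 to 0.275, over 0.1 in all 6 pairs, so that values with the number as a block are given where they change a call. The pairing comes from the data and not from the labels.

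Genes named are the 8 of smallest p, Bcl2, Nr4a1, Egr2, Cd83, Cr2, Cd1d1 and Bcl2l11, and called genes. All others were chosen after their values were seen, and some genes are not reported here. Members and lists were chosen with earlier results of these data known. Alternatives were DESeq2 1.42.0, its size factors in edgeR, no low-count filter, at least 5 CPM on average, only the 12 libraries, the block, 3 fits without or with only some HEL pos libraries, and each library left out in turn. The block with only the 12 libraries was added after the data were seen. HEL neg pools were not tested because each tissue has 1.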

Additional observations from a re-analysis of the deposited data

Results flagged for a closer look

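Hes1 differed between the kinds of cells in its PP minus spleen difference, by 1.54 on the log2 scale (edgeR's quasi-likelihood test, adjusted p = 0.0088). PP was below spleen in 3 of 3 HEL pos library numbers, and in BCL2 HEL pos cells PP was above spleen in 3 of 3. The BCL2 HEL pos difference was not called, so a reversed direction is not shown. In 926 it was small, with 59.3 CPM in PP and 55.8 in spleen. The pairing by number comes from the data.

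The PP HEL neg pool, which no comparison used, held 1626 CPM of summed enterocyte transcripts against 73.9 CPM in the spleen HEL neg pool. The PP HEL pos libraries lay between 316 and 1180 CPM and the PP BCL2 HEL pos libraries between 48.0 and 272 CPM.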

How the results depend on the processing

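The interaction, 1 gene called, gave 60 with DESeq2, 114 with no low-count filter, 48 with the library number as a block and 6 with the block and only the 12 libraries. It gave 3 without the pooled HEL pos libraries, 0 with 399 and Pool of the PP HEL pos group left out (948 at an unadjusted p under 0.05) and 0 with the pooled HEL pos libraries alone (1178 at that level). These fits were by edgeR, the first excepted. With 1 library left in an arm, it is assumed to vary like the other groups. Leaving out 1 library gave 1 to 23 genes: 23 without PP HEL pos 392, 6 without spleen HEL pos 392, and 2 without each of spleen HEL pos 399, PP HEL pos Pool, spleen BCL2 HEL pos 922 and 950, and PP BCL2 HEL pos 922 and 926.

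PP against spleen in HEL pos cells, 1756 genes, gave 640 without PP 399 and Pool and 505 with the pools alone. PP against spleen in BCL2 HEL pos cells, 838 genes, gave 1388 with the block and 473 to 1016 with 1 library left out, with 518, 476 and 545 without spleen 922, 926 and 950, and 521 and 473 without PP 926 and 950. Some values near 0 changed sign. Notch2 gave -0.0080 without PP HEL pos 399 and Pool, where Bcl2 gave 0.24. Bcl2 gave 0.038 without the pooled HEL pos libraries and -0.28 to 0.28 with 1 library left out, and Cd83 -0.027 to 0.36. The cause of these shifts was not tested. The block changed no call among the named genes beyond those given beside each. Depth limits genes near 3 counts, such as Il28ra and Folr4.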

Other observations

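The genes named here were picked from those called with the library number as a block, after their values were seen. Gm2a, an activator of ganglioside breakdown, stood at 861, 863 and 878 CPM in spleen and 635, 775 and 596 CPM in PP of HEL pos cells. In BCL2 HEL pos cells it was at 630, 654 and 623 CPM in spleen and 770, 759 and 945 CPM in PP. PP lay below spleen in every HEL pos library and above it in every BCL2 HEL pos library, with an interaction of 0.75 (adjusted p = 0.140, and 0.0239 with the block). Lgmn, a lysosomal protease, gave 1.09 (adjusted p = 0.259, and 0.0172 with the block). Man2b1, which trims mannose from glycoproteins, gave 0.72 (0.267, and 0.0478), and Pld4, a nuclease of the endolysosome, 0.89 (0.239, and 0.0322). The spleen HEL pos libraries held 328 to 338 CPM of Man2b1 and 632 to 731 of Pld4, above the 9 libraries of the other groups of the contrast.

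S1pr1, the receptor by which lymphocytes leave lymphoid organs, was at 605, 525 and 580 CPM in spleen and 389, 498 and 405 CPM in PP of HEL pos cells. In BCL2 HEL pos cells it was at 628, 562 and 430 CPM in spleen and 742, 693 and 618 CPM in PP. S1pr1 was higher in BCL2 HEL pos than in HEL pos cells of the PP (0.67, adjusted p = 0.00506), and in spleen the difference was -0.08 (adjusted p = 0.791). Its interaction was 0.75 (adjusted p = 0.259, and 0.0460 with the block). Vpreb3, expressed in immature B cells, was at 309 to 532 CPM in spleen and 211 to 343 in PP of HEL pos cells, and at 149 to 196 and 205 to 332 CPM in BCL2 HEL pos cells. Its interaction was 1.13 (adjusted p = 0.274, and 0.0322 with the block).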
